A study of Mus musculus with 22 samples.

Results

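The alpha and beta T-cell receptor genes were described across 11 lymphocyte populations from mouse mammary tumours. They are all genes of the count table whose symbol starts with Trav or Trbv followed by a digit, together with the constant-region genes Trac, Trbc1 and Trbc2. This rule found 56 genes (33 Trav segments, 20 Trbv segments and 3 constant genes) among 37620 table entries, and all 56 had at least 1 count. GENCODE M21 names 166 such genes, 128 of them Trav and 35 Trbv, so the values cover the segments that could be matched by identifier. Trav11 and Trav11d, the alpha segments of type I natural killer T (NKT) cells, were not matched and are not analysed here.

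RNA of sorted cells was sequenced in 22 libraries, 2 for each population, from pooled tumours of female C57BL/6 mice aged 20 to 24 weeks that carry PyMT, the polyoma middle T oncogene. No promoter for PyMT is named in the labels, no treatment is given, and every population came from tumour-bearing animals of this one genotype. A first set of 5 populations (10 libraries) was sorted by T-cell receptor, CD8a, NK1.1 and PD1: TCRb+CD8a+NK1.1+, TCRb+CD8a-NK1.1+, TCRb+CD8a+PD1+, TCRb+CD8a+PD1-NK1.1- and TCR-NK1.1+. A second set of 6 populations (12 libraries) comprised TCRab+ILTC1, TCRgd+ILTC1, TCRb+CD8a+NK1.1-, TCRgd+NK1.1-, ILC1l and cNK, where ILTC1 is the field's name for type 1 innate-like T cells, ILC1l for cells like type 1 innate lymphoid cells, and cNK for conventional natural killer (NK) cells. Libraries held 8696335 to 20602715 counts. Nothing in the labels says that the libraries of a population came from separate animals, so p-values measure the spread between these libraries, which may be technical.

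A T cell joins 1 variable (V) segment to joining and constant parts in each receptor chain, the beta chain first and the alpha chain later, and expanded clones share the same segments. Transcripts of the constant regions can also arise from loci that were never rearranged, and such transcripts are known in NK cells and other lymphocytes. The Trav locus encloses the delta-chain locus, and segments whose symbol holds "dv" can serve either chain. The V-to-C ratio used here is the sum of counts over V segments divided by the counts of the constant gene or genes. It is formed within a library and therefore free of scaling between libraries. Only 33 of 128 annotated Trav and 20 of 35 annotated Trbv segments were matched. Ratios, shares and evenness can therefore also change with the use of unmatched segments, above all for Trav.

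The members resemble one another to different degrees, which bears on how counts can be assigned to them. Sequences are from the GENCODE M21 transcripts (GRCm38), with Trac and the Trav genes on chromosome 14 and the Trbc and Trbv genes on chromosome 6. The constant genes Trbc1 and Trbc2 differ at 1 of 375 bases in their first coding exon, C260A counted from the first base of that exon in Trbc1, and at 23 of 518 bases over the coding sequence (95.6% identity). Bases 200 to 320 of that exon are shown for the pair, because the balance of Trbc1 and Trbc2 differed between populations, and capitals mark the base that differs.
Trbc1: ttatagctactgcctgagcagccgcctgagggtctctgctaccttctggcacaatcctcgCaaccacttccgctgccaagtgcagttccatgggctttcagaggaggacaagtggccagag
Trbc2: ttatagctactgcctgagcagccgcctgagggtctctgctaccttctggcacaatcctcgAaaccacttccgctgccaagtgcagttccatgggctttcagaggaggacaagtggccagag
Of all stretches of 50 bases in a gene, 59.5% in Trbc1 and 56% in Trbc2 occur in no other receptor gene or predicted gene of the annotation. Their separate counts are therefore uncertain, and their sum, which the beta ratio uses, is not affected by exchange between them.

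The Trav16 genes are the clearest case among the V segments. Over the 301 bases of the V exon, Trav16 differs from Trav16n at 4 bases and from Trav16d-dv11 at 5, and the last pair differs at 3. Bases 31 to 292 of the exon are shown, because Trav16n or Trav16d-dv11 led the alpha segments of several libraries, and capitals mark every base at which the 3 genes are not all alike.
Trav16: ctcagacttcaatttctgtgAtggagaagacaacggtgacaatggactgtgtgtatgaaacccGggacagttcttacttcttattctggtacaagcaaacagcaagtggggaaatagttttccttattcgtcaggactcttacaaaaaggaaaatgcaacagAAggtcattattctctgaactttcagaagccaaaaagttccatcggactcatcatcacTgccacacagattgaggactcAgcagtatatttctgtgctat
Trav16n: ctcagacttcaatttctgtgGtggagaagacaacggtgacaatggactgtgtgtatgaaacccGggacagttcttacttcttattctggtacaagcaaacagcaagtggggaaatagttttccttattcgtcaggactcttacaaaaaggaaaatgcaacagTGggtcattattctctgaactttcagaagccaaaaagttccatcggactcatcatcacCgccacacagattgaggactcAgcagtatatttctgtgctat
Trav16d-dv11: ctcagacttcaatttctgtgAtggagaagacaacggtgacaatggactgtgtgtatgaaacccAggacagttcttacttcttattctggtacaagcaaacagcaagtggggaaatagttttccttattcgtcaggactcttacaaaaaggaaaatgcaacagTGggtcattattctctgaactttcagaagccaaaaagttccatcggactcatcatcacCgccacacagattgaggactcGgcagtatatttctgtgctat
The share of unique 50-base stretches had a median of 68.4% over Trav segments and of 100% over Trbv segments. Single Trbv values are thus better resolved than single Trav values, and Trav13d-1 (12.7%), Trav16d-dv11 (37.2%) and Trav16n (49.5%) are the least certain of the segments described.

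Trac, the constant gene of the alpha chain, separated the populations most widely of the 3 constant genes. Its level in CPM (counts scaled to a common library total, with TMM factors within a set) was 917 and 764 in the TCRb+CD8a+NK1.1+ libraries, 535 and 492 in TCRb+CD8a-NK1.1+, 1108 and 800 in TCRb+CD8a+PD1+ and 765 and 707 in TCRb+CD8a+PD1-NK1.1-. In the second set it was 791 and 804 in TCRab+ILTC1 and 636 and 556 in TCRb+CD8a+NK1.1-. These 12 libraries of alpha-beta T cells all lay above the 10 others. TCR-NK1.1+ libraries had 87.0 and 157 CPM of Trac, ILC1l 24.3 and 138, TCRgd+ILTC1 70.4 and 40.6, and TCRgd+NK1.1- 174 and 100. The cNK libraries were lowest, with 5.29 and 8.35 CPM (6.82 ± 2.17, SD, n = 2). Among the populations without an alpha-beta receptor most neighbours overlapped, and the ILC1l libraries lay 1 below and 1 above both TCRgd+ILTC1 libraries. In bulk samples, fewer cells of a type and less RNA per cell cannot be told apart.

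Trbc2, the second of the beta constant genes, was also highest in alpha-beta T cells and lowest in cNK, over a narrower range. It was 825 ± 73.7 CPM in TCRb+CD8a+NK1.1+ and 949 ± 177 in TCRb+CD8a+PD1+ cells (SD, n = 2), against 262 ± 19.0 in TCR-NK1.1+, 252 ± 93.7 in ILC1l and 69.6 ± 9.40 in cNK. Trbc1 followed it only in part. Its level was 266 ± 19.2 CPM in cNK, 290 ± 89.4 in ILC1l, 244 ± 43.7 in TCR-NK1.1+ and 278 ± 57.0 in TCRb+CD8a-NK1.1+ cells, ranges that overlap. The means of all other alpha-beta T-cell populations were higher, from 345 in TCRb+CD8a+NK1.1- to 486 in TCRb+CD8a+PD1+ cells. The lowest Trbc1 mean was in TCRgd+NK1.1- cells (163 CPM). The cNK libraries thus had Trbc1 within the range of receptor-bearing cells while Trac and Trbc2 were at their lowest.

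**Figure D1:**
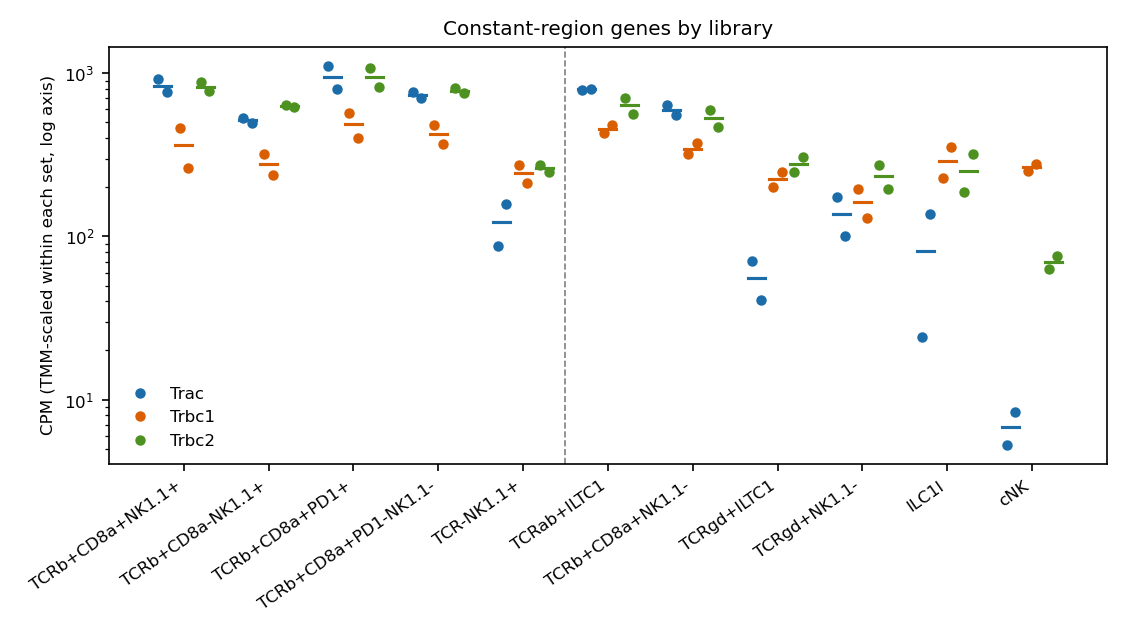
Level of Trac, Trbc1 and Trbc2 in CPM (TMM-scaled within each set, log axis) in the 22 libraries, with 1 point per library and a bar at the mean of each population; the dashed line separates the sets. Trac spans 5.29 to 1108 CPM, while Trbc1 in cNK cells (mean 266) lies among the values of the other populations.

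The balance of the beta constant genes, given as the percentage of Trbc1 in the sum of both, moved accordingly. It was 80.0 and 78.6% in the cNK libraries, 54.9 and 52.6% in ILC1l and 49.9 and 46.2% in TCR-NK1.1+. The 12 alpha-beta T-cell libraries ranged from 25.4 to 45.8% with a median of 34.5%. TCRgd+ILTC1 libraries had 44.9 and 44.7% and TCRgd+NK1.1- libraries 41.9 and 40.02%, inside that range. All 6 libraries of cells sorted without a T-cell receptor lay above all 12 of the alpha-beta T cells, by a margin of less than 1 percentage point at the nearest pair. No test of this percentage was planned.

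The beta V-to-C ratio separated the same libraries without overlap. These groups were defined by the receptor itself, so the direction of the difference was set in advance by the gates. In the 12 libraries of alpha-beta T cells it ranged from 0.498 to 0.662 with a median of 0.578. The TCR-NK1.1+ libraries had 0.162 and 0.270, the ILC1l libraries 0.0377 and 0.206, and the cNK libraries 0.00395 and 0.00899, the last resting on 16 and 36 Trbv counts against 3243 and 3145 counts of Trbc1 and 809 and 858 of Trbc2. No library of receptor-negative cells reached the lowest alpha-beta library. The mean log2 difference was 3.11 (12 against 6 libraries, exact permutation test of libraries within sets, two-sided, p = 0.000318). This is the smallest p that permuting libraries can give, and it was 0.0019 after Benjamini-Hochberg adjustment over the 6 library-level tests. The label tested belongs to a population, but its 2 libraries were permuted as separate units. As evidence on populations this p-value is therefore too small, and the other library-level tests share this limit. Within the first set alone the difference was 1.47 (exact p = 0.0222) and within the second 4.75 (exact p = 0.0286). Each is the smallest p that permuting the libraries of that set allows. Both were above 0.05 after adjustment (0.133 and 0.171).

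Markers of T cells were lower in most receptor-negative libraries than in alpha-beta T cells, but they did not follow this ratio over all populations. The summed CPM of the T-cell markers Cd3d, Cd3e and Cd3g was 1348 and 1655 in TCR-NK1.1+, 547 and 2056 in ILC1l, and 17.7 and 31.0 in cNK libraries, against 2017 to 6895 in alpha-beta T cells, and none of these 3 genes was at 0 in the receptor-negative libraries. The ILC1l library with the higher marker sum also had the higher beta ratio, 0.206 against 0.0377. In contrast, TCRgd+ILTC1 libraries had sums of 4017 and 4631 CPM with beta ratios of 0.212 and 0.246. TCRb+CD8a+NK1.1- libraries had lower sums, 2832 and 2017 CPM, with higher ratios, 0.659 and 0.624. The 10 epithelial markers summed to 3665 to 6067 CPM in TCR-NK1.1+, 681 to 714 in ILC1l and 56.9 to 110 in cNK, against 199 to 4303 in alpha-beta T cells. The 6 B and plasma markers summed to 109 to 304 in TCR-NK1.1+, 10.3 to 27.5 in ILC1l and 459 to 654 in cNK, against 2.24 to 45.1 in alpha-beta T cells. The 4 NK and innate lymphoid markers summed to 3906 to 6612 in the receptor-negative libraries, against 133 to 3328. Their part in the result was not tested.

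Gamma-delta T cells, whose receptor uses neither the alpha nor the beta chain, had low beta ratios, and those of the TCRgd+ILTC1 gate had high alpha ratios. The beta ratio was 0.212 and 0.246 in TCRgd+ILTC1 and 0.129 and 0.0807 in TCRgd+NK1.1- libraries, all below the 12 alpha-beta T-cell libraries. The alpha ratio, Trav over Trac, was 1.58 and 2.76 in TCRgd+ILTC1, where Trav counts (1481 and 1429) exceeded Trac counts (936 and 518). This lies above all other libraries, since alpha-beta T cells had 0.0782 to 0.274 and TCRgd+NK1.1- cells 0.124 and 0.401. Without the 3 segments named as shared with the delta chain, the ratio in TCRgd+ILTC1 was 0.519 and 1.78, still above every alpha-beta T-cell library. The counts that remain include Trav13d-1, in which 12.7% of 50-base stretches are unique. Some of its counts may therefore belong to other segments, those shared with the delta chain included. These values carry no test, because the tests of the alpha ratio covered alpha-beta and receptor-negative populations.

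**Figure D2:**
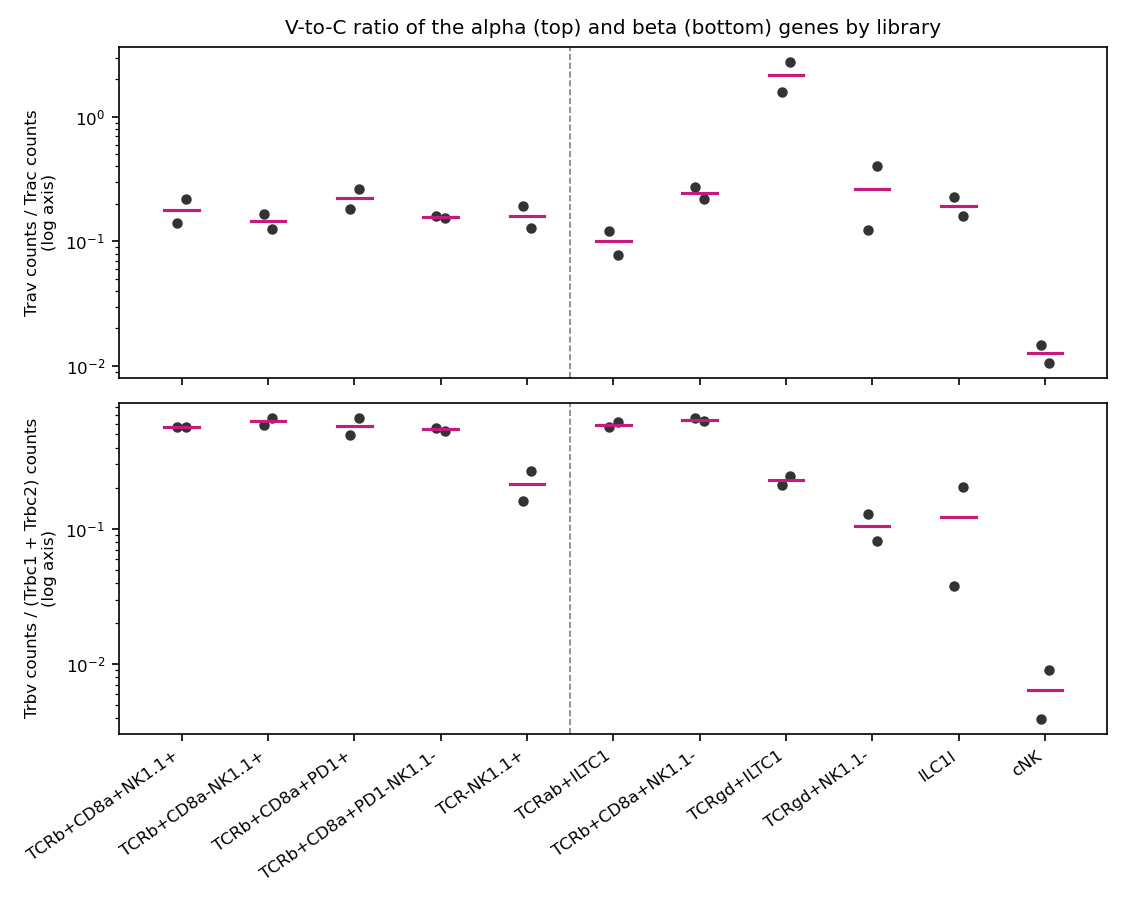
V-to-C ratio of the alpha genes (Trav over Trac, top) and of the beta genes (Trbv over Trbc1 plus Trbc2, bottom) on log axes, with 1 point per library and a bar at the mean of each population; the dashed line separates the sets. The beta ratio of the alpha-beta T cells lies between 0.498 and 0.662 and no other library reaches it, while the alpha ratio is highest in TCRgd+ILTC1 cells (1.58 and 2.76).

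The alpha ratio of receptor-negative cells did not separate from that of alpha-beta T cells. It was 0.194 and 0.127 in TCR-NK1.1+ and 0.227 and 0.160 in ILC1l, inside the alpha-beta range, and 0.0147 and 0.0106 in cNK, each from 1 Trav count. The mean log2 difference was 0.90 (12 against 6 libraries; exact permutation test, p = 0.235, adjusted 0.282). It was 0.13 in the first set and 1.66 in the second, and with 1 library left out it ranged from 0.53, without the second cNK library, to 1.27, without the first ILC1l library. Among alpha-beta T cells, the innate-like populations (TCRb+CD8a+NK1.1+, TCRb+CD8a-NK1.1+ and TCRab+ILTC1) had alpha ratios of 0.0782 to 0.219 and the conventional ones (TCRb+CD8a+PD1+, TCRb+CD8a+PD1-NK1.1- and TCRb+CD8a+NK1.1-) 0.155 to 0.274. The difference of -0.77 did not pass (6 against 6; exact permutation test, p = 0.0714, adjusted 0.214), and it was -0.22 in the first set and -1.33 in the second. The beta ratio differed by -0.01 between them (exact p = 0.867), and this value changed sign in 1 of the sets and when single libraries were left out. The alpha ratios cover matched Trav segments alone, and the part of the unmatched ones was not tested.

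Each alpha-beta T-cell library drew on most of the measured Trbv segments, 17 to 19 of 20, in unequal shares. Shares are given as the percentage of all Trbv counts of a library, and coding lengths are so alike that shares per coding base differ from them by at most 2.51 points in libraries with 50 or more counts at the locus. Per coding base the leading Trbv segment was the same in 18 of 20 such libraries, and likewise the leading Trav segment in 18 of 20. Intervals in brackets are 95% Wilson intervals. They account for the sampling of counts alone, as no molecular identifiers separate PCR copies from molecules. Per coding base the leading segment of the 12 libraries was Trbv3, Trbv16, Trbv19, Trbv13-1 or Trbv13-2.

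Some shares were much higher in 1 library of a population than in the other. Trbv19 took 33.4% (32.4 to 34.3) of the Trbv counts in the second TCRb+CD8a+PD1+ library and 6.64% (6.22 to 7.08) in the first. Trbv3 went the other way, with 22.8% (22.1 to 23.6) in the first and 3.89% (3.51 to 4.30) in the second. Trbv19 also stood at 30.3% (29.2 to 31.5) in the second TCRb+CD8a+NK1.1- library and 13.2% (12.5 to 13.9) in the first. These intervals do not touch, so the libraries of a population differed by more than counting error.

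Trbv16 had 13.1% (12.4 to 13.8) and 25.8% (24.8 to 26.9) in TCRb+CD8a+NK1.1+ libraries, where Trbv3 had 13.2 and 13.5%. Trbv16 was also at 11.4 and 16.1% in TCRab+ILTC1 and at 11.8 and 15.3% in TCRb+CD8a-NK1.1+ libraries, but it ranged from 2.32 to 14.8% in TCRb+CD8a+PD1+ and from 4.36 to 6.65% in TCRb+CD8a+NK1.1-. Trbv29 was high in both TCRb+CD8a+PD1+ libraries, 17.2% (16.5 to 17.8) and 10.3% (9.69 to 10.9), and in 1 TCRb+CD8a+NK1.1- library (11.9%). The other 9 alpha-beta T-cell libraries had 1.72 to 4.72% of Trbv29. Trbv15 was the reverse, with 0.502 and 0.626% in TCRb+CD8a+PD1+ libraries and 3.05 to 10.7% in the other 10.

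Trbv5 set the alpha-beta T-cell libraries apart from the others, a pattern singled out after its values were seen. Its share was 20.2% (18.1 to 22.6) and 15.6% (14.0 to 17.4) in TCR-NK1.1+, 7.61% (4.67 to 12.2) and 34.9% (32.7 to 37.2) in ILC1l, 7.95 and 15.1% in TCRgd+ILTC1, and 10.7 and 8.24% in TCRgd+NK1.1-. All 8 of these libraries lay above all 12 alpha-beta T-cell libraries, which had 0.368 to 5.3%. Its level in CPM did not separate them in the same way, with 18.0 and 19.5 CPM of Trbv5 in TCR-NK1.1+ and 26.6 and 11.2 in TCRb+CD8a+PD1-NK1.1- libraries. Of the few Trbv counts in cNK cells, Trbv5 had 0 of 16 and 17 of 36, where 0 of 16 allows up to 3 counts.

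The segments of the beta chain used by type I NKT cells are Trbv13-2, Trbv29 and Trbv1. In TCRb+CD8a-NK1.1+ cells, the gate in which such cells would fall, Trbv13-2 had 18.4% (17.6 to 19.3) and 9.59% (8.97 to 10.2), Trbv29 had 3.36 and 2.12%, and Trbv1 had 5.66 and 4.37%. TCRb+CD8a+NK1.1+ libraries had 12.2 and 11.7% of Trbv13-2, so only 1 of the TCRb+CD8a-NK1.1+ libraries was above both. Trbv13-2 was highest in TCRgd+NK1.1- libraries, at 20.4% (17.2 to 23.9) and 30.6% (26.1 to 35.4), which rest on 114 and 115 counts.

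**Figure D3:**
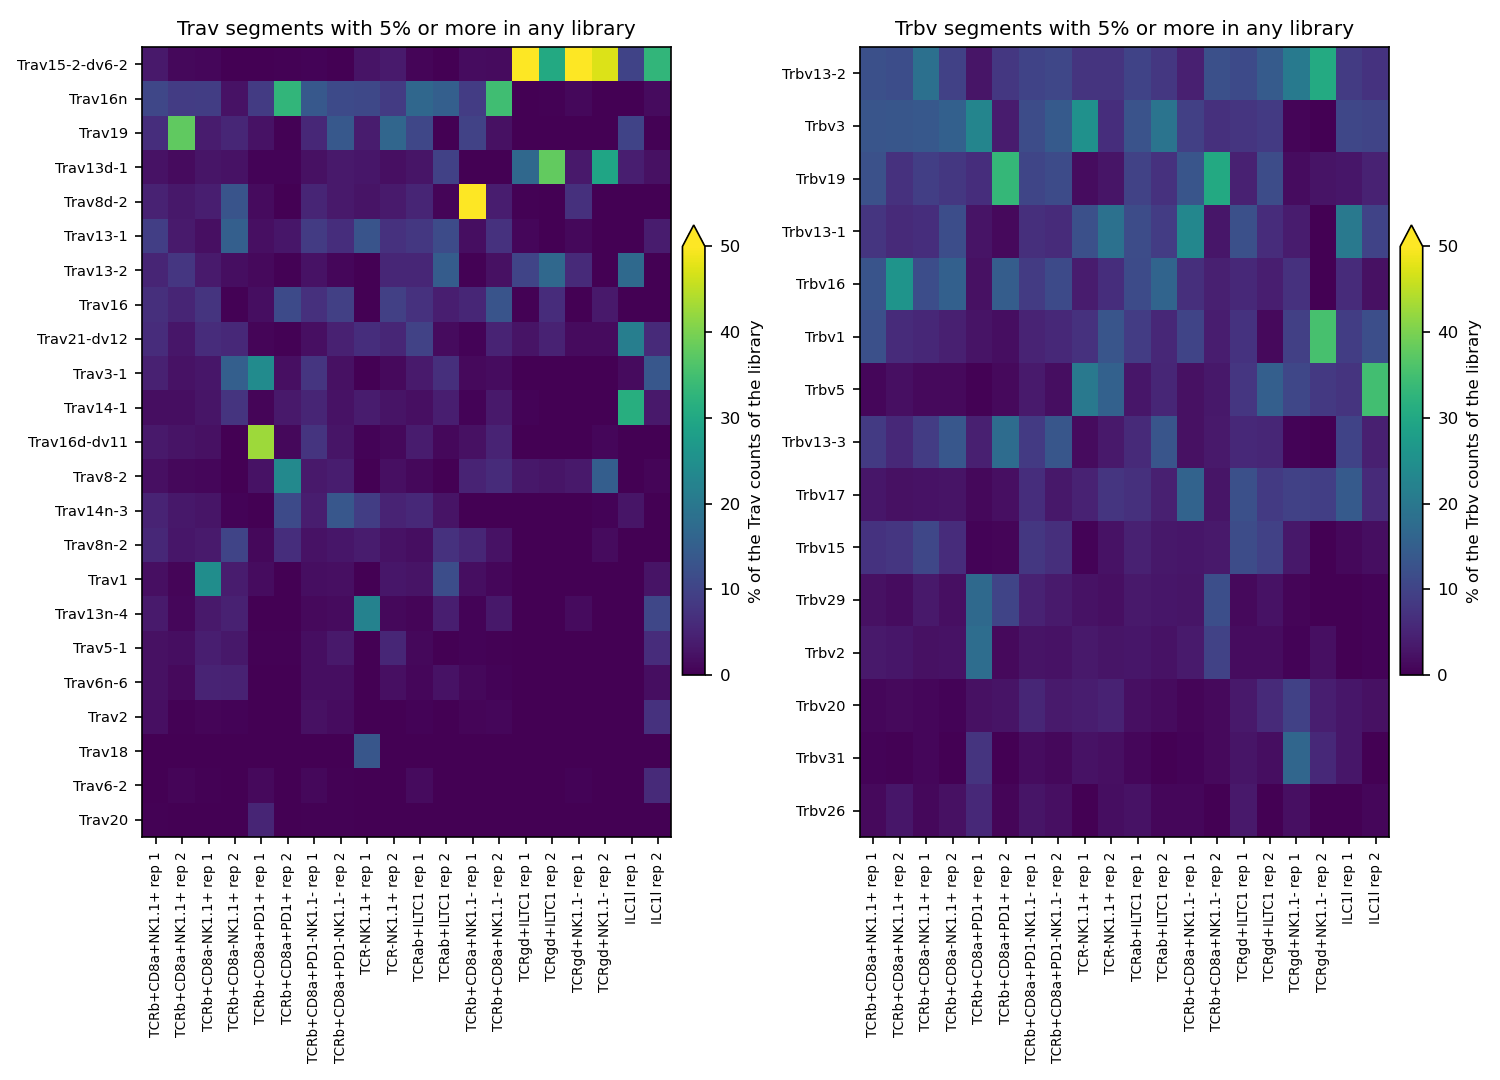
Share of each Trav segment (left) and Trbv segment (right) in the Trav or Trbv counts of a library, for segments that reach 5% in any of 20 libraries; rows are ordered by mean share, columns are libraries, and the colour scale ends at 50%. Trav15-2-dv6-2 is bright in the 4 gamma-delta libraries and also in the second ILC1l library. Single bright cells mark segments high in 1 library of a population. The cNK libraries are left out because each had 1 Trav count.

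Alpha segments were spread over more genes, with 19 to 33 of the 33 Trav segments seen in an alpha-beta T-cell library, and 1 segment often led a single library. Trav8d-2 took 49.9% (48.0 to 51.9) of the Trav counts in the first TCRb+CD8a+NK1.1- library and 3.93% (3.06 to 5.02) in the second. Trav16d-dv11 took 42.7% (41.0 to 44.4) in the first TCRb+CD8a+PD1+ library and 1.099% (0.751 to 1.61) in the second. In that same first library Trav3-1 stood at 24.1% (22.6 to 25.6), against 1.99% in the second. By these counts the leading segment was not shared with the other library of the population. For TCRb+CD8a+PD1+ cells this is uncertain, because both libraries were led by Trav16 genes, Trav16d-dv11 and Trav16n, which differ at few bases.

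Trav16n led the second TCRb+CD8a+PD1+ library with 32.9% (31.0 to 34.8), where Trav8-2 followed with 23.6% (21.9 to 25.3), and it led the second TCRb+CD8a+NK1.1- library with 34.7% (32.3 to 37.1). The other 10 alpha-beta T-cell libraries had 2.36 to 16.8% of Trav16n. Trav19 took 37.8% (35.7 to 39.9) in the second TCRb+CD8a+NK1.1+ library and 6.54% (5.41 to 7.88) in the first. Since the Trav16 genes differ at few bases of the sequences above, their counts cannot be told apart with certainty.

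Trav1, the alpha segment of mucosal-associated invariant T (MAIT) cells, stood out in 1 library. It took 24.4% (22.2 to 26.8) of the Trav counts of the first TCRb+CD8a-NK1.1+ library, from 327 counts, and 3.71% (2.65 to 5.17) of the second. The next highest share was 11.8% (9.74 to 14.2) in 1 TCRab+ILTC1 library, and the other 9 alpha-beta T-cell libraries had 0.0423 to 2.61%. Traj33, the joining segment that MAIT cells combine with Trav1, had 60 counts in the first TCRb+CD8a-NK1.1+ library and 10 in the second, but 67 and 49 in the TCRb+CD8a+NK1.1+ libraries. Traj18, the joining segment of type I NKT cells, had 36 and 2 counts in TCRb+CD8a-NK1.1+ and 36 and 5 in TCRb+CD8a+NK1.1+ libraries. Zbtb16, listed beforehand as an NKT marker, had 2.14 and 1.25 CPM in TCRb+CD8a-NK1.1+ libraries. It had 0 in both TCRb+CD8a+PD1+ libraries, but 2.21 and 2.08 CPM in ILC1l and 3.50 and 7.29 in cNK. Zbtb16 had 1.91 and 6.10 CPM in TCRab+ILTC1 and was highest in TCRgd+NK1.1- libraries, at 9.77 and 40.1 CPM.

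In gamma-delta T cells 1 shared segment took much of the Trav counts. Trav15-2-dv6-2 made up 64.6% (62.1 to 67.0) and 30.4% (28.1 to 32.9) in TCRgd+ILTC1 and 74.6% (68.2 to 80.1) and 47.3% (43.3 to 51.4) in TCRgd+NK1.1- libraries. The 12 alpha-beta T-cell libraries had 0 to 3.37% of it. ILC1l libraries had 10% (4.93 to 19.2) and 32.8% (27.5 to 38.7), from 7 and 87 counts. Its V exon of 300 bases is shown because it carried this difference.
Trav15-2-dv6-2: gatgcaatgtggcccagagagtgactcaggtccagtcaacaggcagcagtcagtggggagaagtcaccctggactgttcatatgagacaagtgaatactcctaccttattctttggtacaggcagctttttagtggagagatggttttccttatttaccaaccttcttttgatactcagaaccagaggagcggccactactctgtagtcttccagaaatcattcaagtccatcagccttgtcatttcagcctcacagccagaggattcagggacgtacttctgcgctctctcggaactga
Trav13d-1, which has no "dv" in its symbol, had 16.8 and 37.9% in TCRgd+ILTC1 and 3.48 and 29.4% in TCRgd+NK1.1-, against 0.0786 to 9.69% in alpha-beta T cells. Trdv4, a delta-chain segment, had 323 and 554 counts in TCRgd+ILTC1, 3680 and 4094 in TCRgd+NK1.1-, and 451 and 453 in ILC1l, but also 670 and 596 in cNK libraries.

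Evenness was measured over the matched segments as the effective number of segments, the inverse of the Simpson index. This is the number of equally used segments that would give the same concentration. For Trav it ranged from 3.61 to 18.7 over the alpha-beta T-cell libraries (median 10.5), and for Trbv from 5.41 to 13.2 (median 9.28). Among these libraries, Trav values were 3.61 and 6.36 in TCRb+CD8a+NK1.1- and 3.95 and 5.12 in TCRb+CD8a+PD1+. Gamma-delta T cells, led by Trav15-2-dv6-2 or Trav13d-1, were lower still at the Trav locus in 3 of 4 libraries, with 2.19 and 3.68 in TCRgd+ILTC1 and 1.77 and 3.00 in TCRgd+NK1.1-, against 3.61 in the lowest alpha-beta library. TCRb+CD8a+PD1-NK1.1- libraries had 16.6 and 13.2. TCRb+CD8a+NK1.1+ libraries had 18.7 and 5.96, which covers nearly the whole range. Innate-like against conventional populations differed by a log2 of 0.84 for Trav (exact permutation test, p = 0.114, adjusted 0.229) and 0.27 for Trbv (exact p = 0.229, adjusted 0.282), so neither difference passed. By set, the Trav difference was 0.39 and 1.29 and the Trbv difference 0.08 and 0.47. The Trbv difference ranged from 0.16, without the second TCRb+CD8a+PD1+ library, to 0.37 when 1 library was left out, and was 0.18 without the first TCRab+ILTC1 library.

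**Figure D4:**
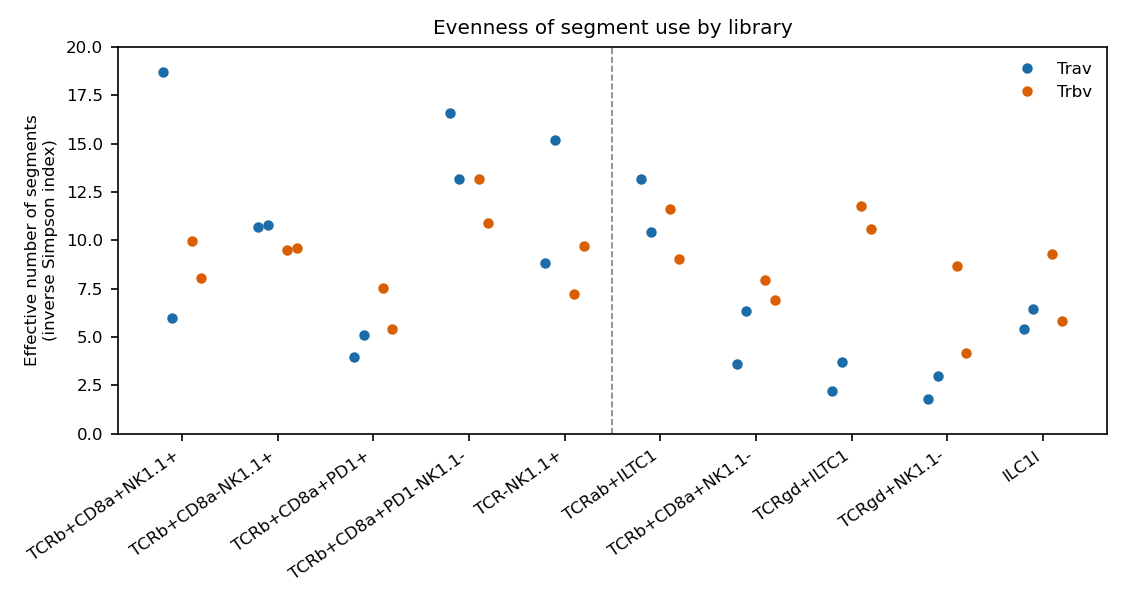
Effective number of Trav and Trbv segments (inverse Simpson index) in each library of 10 populations, with 1 point per library; cNK libraries are left out because they held 1 Trav count each, and the dashed line separates the sets. Trav values spread from 3.61 to 18.7 in alpha-beta T cells, and both TCRb+CD8a+PD1+ libraries and the first TCRb+CD8a+NK1.1- library lie near the lower end.

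The overlap of segment shares was then compared within and between the 6 alpha-beta T-cell populations, as the sum over segments of the smaller share. For Trbv it was 40.3 to 87.8% within a population (6 pairs, median 80.3%) and 40.1 to 86.4% between populations (60 pairs, median 62.9%). For Trav it was 22.7 to 73.0% (median 52.5%) within and 22.1 to 79.2% (median 46.6%) between. The ranges coincide, and pairs share libraries, so these are descriptions without a test.

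Tests of single genes began with TCRb+CD8a+NK1.1+ against TCR-NK1.1+ cells, which share NK1.1 and differ in the receptor. The direction for the receptor genes and Cd8a was thus set in advance by the gates. For the receptor genes the same holds where other alpha-beta T cells are compared with receptor-negative or gamma-delta cells. Of 47 members tested, 8 were higher and 0 lower by edgeR's quasi-likelihood test (Benjamini-Hochberg adjusted p under 0.05), where 1.54% of all genes were called, 0.267% higher and 1.27% lower. Trac rose by a log2 of 2.78 ± 0.33 (SE, adjusted p = 0.00691) and Trbc2 by 1.65 ± 0.24 (adjusted p = 0.0148). Trbc1 did not pass, at 0.57 (adjusted p = 0.465). The other 6 were Trbv segments with log2 differences of 2.49 for Trbv29, 3.34 for Trbv13-2, 4.12 for Trbv13-3, 4.44 for Trbv16, 4.73 for Trbv19 and 4.84 for Trbv15. Trbv15 had 55.0 and 46.9 CPM in the T cells and 0.365 and 3.16 in the receptor-negative cells. Trbv19 had 94.1 and 42.2 against 1.53 and 3.56, and no library of either gene overlapped the other group.

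No Trav segment was called there (0 of 26 by edgeR, 13 at an unadjusted p under 0.05), and the median log2 difference was 3.22 over Trav and 2.53 over Trbv, against -0.05 over all genes. Of 14 genes listed as partners of the receptor, 10 were tested and 4 rose, the CD3 chains Cd3d, Cd3e and Cd3g and the coreceptor gene Cd8a. The 8 members were among 242 genes called in all, and both counts moved together: 0 of 3 genes called without the first TCRb+CD8a+NK1.1+ library, 1 of 13 without the second, and 3 of 45 and 3 of 137 without the first and second TCR-NK1.1+ library. Members were 23 of 1452 genes called without the filter on low counts, 20 of 1055 with DESeq2 and 2 of 72 with all 22 libraries in one fit. Markers of other cells differed in this pair, with epithelial sums of 3665 to 6067 CPM in TCR-NK1.1+ against 579 to 698 in TCRb+CD8a+NK1.1+, myeloid sums of 522 to 594 against 54.8 to 69.4, and B and plasma sums of 109 to 304 against 33.4 to 44.0. Their part in the result was not tested.

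Against the same receptor-negative cells, TCRb+CD8a-NK1.1+ cells gave 0 calls among 47 members by edgeR (24 at an unadjusted p under 0.05, 11 called by DESeq2), where 0% of all genes were called. The median log2 difference of the members was 2.10. Trac had 2.07 ± 0.32 (adjusted p = 0.0911) and Trbv15 4.75 ± 0.76 (adjusted p = 0.0922). Members were 7 of 318 genes called without the first TCRb+CD8a-NK1.1+ library, 1 of 2 without the second TCR-NK1.1+ library and 11 of 186 with DESeq2. Epithelial markers differed between the TCRb+CD8a-NK1.1+ libraries, at 4303 and 990 summed CPM, and their part in the result was not tested.

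Few members were called between the T-cell populations of the first set. With 2 libraries per population, few calls do not show that segment use was alike. TCRb+CD8a+NK1.1+ against TCRb+CD8a+PD1+ cells gave 2 calls, 1 in each direction, where 2.11% of all genes were called, 1.09% higher and 1.02% lower. Trbv15 had 55.0 and 46.9 CPM against 4.10 and 5.08, a log2 difference of 3.47 ± 0.70 (adjusted p = 0.0335, edgeR). Trbv29 had 17.0 and 10.1 CPM against 140 and 83.5, a difference of -3.04 ± 0.45 (adjusted p = 0.00722, edgeR). The libraries of neither gene overlapped between these groups. With each of the 4 libraries left out in turn, Trbv15 was called in 0 of 4 fits and Trbv29 in 2. Members were 2 of 332 genes called in all, 1 of 119 without the first TCRb+CD8a+NK1.1+ library, 0 of 116 without the second and 0 of 170 without the first TCRb+CD8a+PD1+ library. They were 10 of 838 without the filter on low counts, 6 of 807 with DESeq2 and 0 of 221 with all 22 libraries in one fit.

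TCRb+CD8a+NK1.1+ against TCRb+CD8a-NK1.1+ cells gave 0 member calls by edgeR (3 at an unadjusted p under 0.05, 0 called by DESeq2), where 0.337% of all genes were called, 0.00636% higher and 0.331% lower. Against TCRb+CD8a+PD1-NK1.1- cells there were 0 as well (2 at an unadjusted p under 0.05, 1 called by DESeq2), where 1.78% of all genes were called, 0.916% higher and 0.865% lower. TCRb+CD8a+PD1+ against TCRb+CD8a+PD1-NK1.1- cells gave 0 (10 at an unadjusted p under 0.05, 2 called by DESeq2), where 0.451% of all genes were called, 0.184% higher and 0.267% lower. Without the second TCRb+CD8a+PD1+ library 1 member was among 14 genes called, against 71 with it. In that last pair Trbv15 stood at -3.43 ± 0.70 (adjusted p = 0.0873) and Trbv29 at 2.02 ± 0.43 (adjusted p = 0.104). These comparisons share libraries with the ones above.

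**Figure D5:**
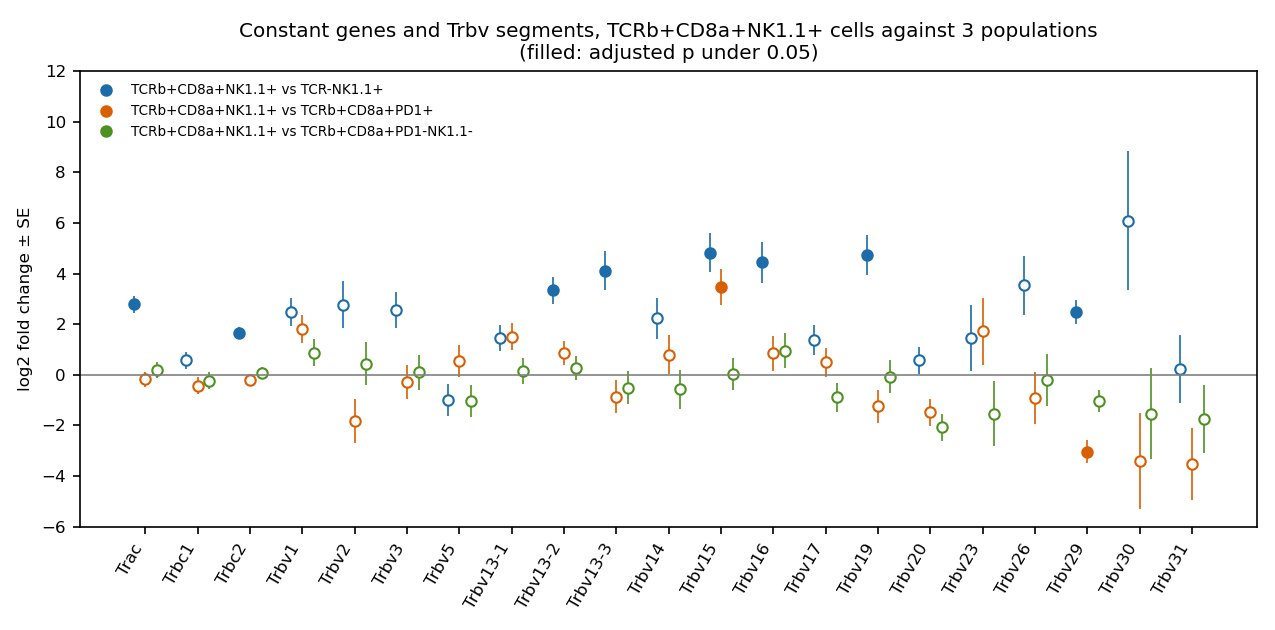
Log2 fold change with its standard error for the constant genes and the 18 tested Trbv segments, comparing TCRb+CD8a+NK1.1+ cells with TCR-NK1.1+, TCRb+CD8a+PD1+ and TCRb+CD8a+PD1-NK1.1- cells, which share the TCRb+CD8a+NK1.1+ libraries; filled points have an adjusted p under 0.05. Against TCR-NK1.1+ cells 8 points are filled, and against TCRb+CD8a+PD1+ cells Trbv15 (3.47) and Trbv29 (-3.04) are.

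In the second set, ILC1l against cNK cells gave 1 call among 47 members, where 1.02% of all genes were called, 0.606% higher and 0.41% lower. Trbc2 had 186 and 318 CPM in ILC1l and 63.0 and 76.2 in cNK libraries, a log2 difference of 1.86 ± 0.33 (adjusted p = 0.0291, edgeR). Trac was higher in both ILC1l libraries but did not pass, at 3.57 (adjusted p = 0.0545). Of the partner genes 9 were tested, 4 were higher in ILC1l (Cd3d, Cd3e, Cd3g and Cd8a) and 1, the zeta-chain gene Cd247, was lower. Members were 1 of 171 genes called in all, 3 of 79 without the first ILC1l library, 0 of 51 without the second, and 0 of 34 and 0 of 53 without the first and second cNK library. They were 14 of 834 with DESeq2, 14 of 787 without the filter on low counts, 8 of 327 with all 22 libraries in one fit and 4 of 357 without the TCRgd+NK1.1- libraries. B and plasma markers summed to 10.3 to 27.5 CPM in ILC1l and 459 to 654 in cNK, myeloid markers to 199 to 257 and 1074 to 1371, and epithelial markers to 681 to 714 and 56.9 to 110, and their part in the result was not tested.

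The remaining comparisons gave no member calls by edgeR. They were 0 of 47 for TCRab+ILTC1 against ILC1l (19 at an unadjusted p under 0.05, 10 called by DESeq2, 0% of all genes called) and 0 for TCRab+ILTC1 against TCRgd+ILTC1 (16 unadjusted, 3 by DESeq2, 0%). For TCRab+ILTC1 against TCRb+CD8a+NK1.1- cells there were 0 (2 unadjusted, 1 by DESeq2), where 0.523% of all genes were called, 0.244% higher and 0.279% lower. Trac had 791 and 804 CPM in TCRab+ILTC1, 70.4 and 40.6 in TCRgd+ILTC1 and 24.3 and 138 in ILC1l, with log2 differences of 3.85 ± 0.71 (adjusted p = 0.781) and 3.30 ± 0.70 (adjusted p = 0.455). Without the first TCRab+ILTC1 library 1 member was called against TCRgd+ILTC1, while calls over all genes went from 0 to 297, so the members' count stayed near the background.

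Outside the members, the genes whose log2 CPM was most like that of Trac over the 22 libraries were Trbj2-7 (r = 0.899), Cd3d (0.879), Trbj2-5 (0.871), Trbj1-3 (0.855) and Cd8a (0.854). Trbj genes are joining segments of the beta chain. These correlations describe libraries that share populations and a scaling, and carry no p. Ptcra, the pre-T-cell receptor alpha chain of immature T cells, had 0 counts in all 22 libraries. The recombinase gene Rag1 had 6 counts in all, 5 of them in 1 TCRb+CD8a+NK1.1+ library.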

How the data were processed

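Cells were sorted from pooled tumours and cDNA was amplified with a SMARTer kit, per the labels' protocols. The authors deposited 1 table of unnormalized counts, with 37620 rows and 22 columns of libraries. BWA 0.7.5a, Picard, HTSeq and the builds mm9 and NCBIM37 are named per the submitters' processing notes; strand and other counting settings are not given there. Of 37620 identifiers, 32897 (99.02% of counts) were matched to symbols through GENCODE M21 and the reference name tables. Coordinates are left out, as the annotation used here is of another build.

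Populations were taken from titles, with ILC1I and ILC1l read as 1 population. Counts were tested in R 4.3.3 with edgeR 4.0.16 (TMM, filterByExpr, quasi-likelihood F test, Benjamini-Hochberg over all genes, adjusted p under 0.05), each set fitted alone, and 15727 and 16828 genes passed the filter, among them 47 members in each set. DESeq2 1.42.0, RLE scaling, no filter, all libraries in one fit, a replicate block and single libraries left out were alternatives. V-to-C ratios and effective numbers were compared by exact permutation of single libraries within sets in Python 3.11.15. Alternatives chosen after seeing the data were the fit without TCRgd+NK1.1- libraries, ratios over segments with 50% or more unique stretches of 50 bases, and shares per coding length; the joining segments were also added then. The scripts were tested on simulated data.

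The members and lists were chosen with earlier results of these data known. Named are the constant genes, segments of NKT and MAIT cells, segments among the 3 largest mean shares of a locus in any T-cell population, called members, 14 partner genes and the 5 genes most like Trac. Marker sums cover gamma-delta, CD4 and regulatory T, B and plasma, myeloid, epithelial, NK and T-cell lists. The B and plasma markers summed to at most 654 CPM, in cNK. The CD4 and regulatory T markers summed to at most 33.9 CPM and the myeloid markers to at most 10720 CPM, both in TCRgd+NK1.1-. The NK and innate lymphoid markers summed to at most 6612 CPM, in cNK, and the gamma-delta markers to 63.2 CPM (cNK) to 1760 CPM (TCRgd+ILTC1). The gamma-delta list did not separate gamma-delta from alpha-beta T cells, with 1592 to 1630 CPM in TCRb+CD8a+PD1+ and 1236 to 1483 in TCRgd+NK1.1-.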

Additional observations from a re-analysis of the deposited data

Results flagged for a closer look

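The TCRgd+NK1.1- libraries enter none of the comparisons, and 2 segments had shares in both of them above those in every alpha-beta T-cell and receptor-negative library. Trav15-2-dv6-2 made up 58.7% of the Trav locus and Trbv13-2 made up 25.7% of the Trbv locus, both per coding length and as the mean of 2 libraries. These libraries also had the highest myeloid marker sums, 4401 and 10720 CPM, whose part in the values was not tested.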

How the results depend on the processing

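The 6 library-level tests kept their direction and side of the threshold under 109 of 116 alternatives. Only the beta ratio of alpha-beta against receptor-negative cells had passed, so for the rest keeping their side adds little. Some alternatives could not pass, as innate-like against conventional cells in the second set alone (smallest exact permutation p = 0.333). The test that had passed did not pass in either set alone (adjusted exact permutation p = 0.133 and 0.171). The beta ratio of alpha-beta against receptor-negative cells was 1.47 in the first set alone and 4.75 in the second, and 2.68 to 3.63 when single libraries were left out. The difference of innate-like from conventional cells in the beta ratio was 0.09 in the first set alone and -0.05 to 0.03 with single libraries left out, positive without TCRb+CD8a+PD1+ replicate 2 (0.03), TCRab+ILTC1 replicate 1 (0.02) or TCRb+CD8a+NK1.1- replicate 1 (0.01). The effective number of Trbv segments differed by -0.02 with segments merged by family. The alpha ratio over segments with unique stretches could not be computed for receptor-negative cells, because a cNK library had 0 such counts.

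Counts of members called are set against all genes called at the same setting. Without the filter on low counts and with DESeq2 they were 23 of 1452 and 20 of 1055 for TCRb+CD8a+NK1.1+ against TCR-NK1.1+, 16 of 287 and 11 of 186 for TCRb+CD8a-NK1.1+ against TCR-NK1.1+, 1 of 906 and 0 of 560 for TCRb+CD8a+NK1.1+ against TCRb+CD8a-NK1.1+, and 1 of 747 and 1 of 768 against TCRb+CD8a+PD1-NK1.1-. They were 10 of 838 and 6 of 807 against TCRb+CD8a+PD1+, and 4 of 397 and 2 of 366 for TCRb+CD8a+PD1+ against TCRb+CD8a+PD1-NK1.1-. For TCRab+ILTC1 they were 13 of 344 and 10 of 201 against ILC1l, 2 of 1244 and 1 of 1182 against TCRb+CD8a+NK1.1-, and 8 of 154 and 3 of 65 against TCRgd+ILTC1, and for ILC1l against cNK 14 of 787 and 14 of 834. With all 22 libraries in one fit the first comparison gave 2 of 72, TCRb+CD8a+NK1.1+ against TCRb+CD8a+PD1+ 0 of 221 and ILC1l against cNK 8 of 327, and without TCRgd+NK1.1- libraries the last gave 4 of 357. With single libraries left out the counts of members were 0 to 3 and 0 to 7 for the 2 comparisons with TCR-NK1.1+, 0 to 2 (TCRb+CD8a+NK1.1+ against TCRb+CD8a+PD1+), 0 to 1 (TCRb+CD8a+PD1+ against TCRb+CD8a+PD1-NK1.1-), 0 to 1 (TCRab+ILTC1 against TCRgd+ILTC1) and 0 to 3 (ILC1l against cNK); a lone library left in a group is assumed to vary like the others. Causes were not tested.

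With the replicate number as a block, TCRb+CD8a-NK1.1+ against TCR-NK1.1+ gave 1 member call (16 over all genes, against 0 with no block), and TCRb+CD8a+PD1+ against TCRb+CD8a+PD1-NK1.1- gave 1 (125 over all genes, against 71); the other counts of members called stayed at 8, 2, 1 and 0, and the beta ratio of alpha-beta against receptor-negative cells stayed at 3.11. The log2 CPM difference between replicates 1 and 2 of a population was weakly correlated between populations in the first set (median 0.16). In the second set it was correlated little or not at all (median 0.06). The correlation was 0.05 to 0.23 over 10 pairs of populations in the first set and -0.04 to 0.12 over 15 pairs in the second. For single genes named, 765 values under alternatives kept direction and side of the threshold, 135 passed it newly and 42 no longer passed. With 2 libraries per population, small differences and segments of few counts are beyond the depth of these data.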
